A study of Mus musculus with 15 samples.

Results

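The genes followed here encode fatty acid desaturases and elongases of the mouse: Scd1, Scd2, Fads1, Fads2, Fads3, Elovl1, Elovl2, Elovl5, Elovl6 and Elovl7. They are 10 of the 18784 genes that the array annotation gave by a symbol of their own. They were chosen by gene symbol, with the probe set of the highest mean over all arrays to be kept where a gene had several. Each of the 10 had exactly 1 probe set, so no measured value decided that step. The family itself was selected on earlier results of these data, in which Scd1 stood out for its increase with both Tet1 hairpins. The changes of Scd1 in the Tet1 knockdowns are therefore given as a description with no test, and counts of passing genes in those comparisons cover the other 9. For these 9 the adjusted p-values come from a fit over all probe sets and are read against the share of all probe sets that passed, not as independent evidence.

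Desaturases of the endoplasmic reticulum place double bonds in fatty acyl chains attached to coenzyme A, and elongases of the Elovl family carry out the first, condensing reaction that lengthens such chains. Elovl6 lengthens palmitate to stearate, the saturated substrate from which stearoyl-CoA desaturases (Scd1 and Scd2 in most mouse tissues) make oleate, the main monounsaturated fatty acid. Fads2 and Fads1 desaturate the dietary polyunsaturated fatty acids in turn, and Elovl5 and Elovl2 lengthen them in between and afterwards, on the way to arachidonic and docosahexaenoic acid. Elovl1 and Elovl7 act on long saturated chains, and Fads3 desaturates the sphingoid base of ceramides. Many of these genes are textbook targets of the sterol regulatory element-binding proteins (SREBPs) and the liver X receptors in liver.

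RNA was measured on 15 arrays of E14TG2a.4, a feeder-independent line of mouse embryonic stem cells kept on gelatin with serum and LIF, a cytokine that holds such cells in self-renewal. All cells, the controls included, had received a pLKO.1 lentivirus with a short hairpin RNA (shRNA) and were taken through puromycin selection at 2 µg per ml, which started 36 hours after transduction and ran for 72 hours, so each group is a selected pool of cells of 1 line. The Tet1 set had 3 arrays each of Tet1 shRNA 4, Tet1 shRNA 5 and a scrambled hairpin, and the Sin3A set had 3 arrays each of a Sin3A shRNA and of its own scrambled hairpin. Tet1 is a dioxygenase that oxidises 5-methylcytosine in DNA, and Sin3A holds together a co-repressor complex that contains histone deacetylases. As the labels do not state separate cultures within a group, every p-value below reflects array-to-array spread that may be purely technical.

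The knockdowns were visible in each array. Tet1 had log2 levels of 10.43, 10.44 and 10.39 with Tet1 shRNA 4 and 9.94, 10.14 and 10.20 with Tet1 shRNA 5, against 12.21, 12.17 and 12.21 with the scrambled hairpin. Sin3a had 9.35, 9.38 and 9.43 with the Sin3A shRNA, against 10.87, 10.99 and 10.94 with its scrambled hairpin. Each target also shifted in the other knockdown. Sin3a fell by 0.27 on the log2 scale with Tet1 shRNA 4 and by 0.24 with Tet1 shRNA 5 (limma adjusted p = 0.0147 and 0.0219), and Tet1 rose by 0.31 with the Sin3A shRNA (0.00679). The Sin3a calls were lost without scrambled array 1 (0.0504 and 0.0669), for shRNA 4 without its array 1 or 3 (0.0563 and 0.0539), and for shRNA 5 without scrambled array 3 (0.0582) or its own array 1 or 3 (0.0868 and 0.0582). All 10 embryonic stem cell markers listed (Pou5f1, Sox2, Nanog and others) lay above the median probe set in all 5 groups, as did 1 of 7 adipocyte markers. Depending on the group, so did 2 to 3 of 7 trophectoderm, 2 to 3 of 9 primitive endoderm and 2 to 5 of 9 fibroblast markers. The 5 fibroblast markers were in the scrambled group of the Sin3A set. The deposited values had array means of 7.08 to 7.11 in the Tet1 set and 8.09 in the Sin3A set, so levels are compared only within a set. Array 2 of Tet1 shRNA 4 and array 2 of the scrambled group in the Tet1 set stood apart together (r = 0.517 between their deviations from their group means across probe sets, which are not independent), and values without both arrays are given where a call changes.

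RefSeq promoter windows (build GRCm38.p6, 250 bases before to 50 after the start of the gene) were available for 7 of the 10 genes. Of these genes 3 are shown: Fads2 and Elovl5, which rose with both Tet1 shRNAs, and Fads3, the neighbour of Fads2, which did not pass with either. Elovl2 also rose with both and has 2 windows, which are described below without their sequence, so the windows shown are a selection. Fads2 lies at chr19:10101454-10101753 on the minus strand, Elovl5 at chr9:77917115-77917414 on the plus strand and Fads3 at chr19:10041298-10041597 on the plus strand. Capitals mark matches on either strand to CACGTG (the E-box), CCAAT (the NF-Y box) and GGGCGG (the GC box).
Fads2: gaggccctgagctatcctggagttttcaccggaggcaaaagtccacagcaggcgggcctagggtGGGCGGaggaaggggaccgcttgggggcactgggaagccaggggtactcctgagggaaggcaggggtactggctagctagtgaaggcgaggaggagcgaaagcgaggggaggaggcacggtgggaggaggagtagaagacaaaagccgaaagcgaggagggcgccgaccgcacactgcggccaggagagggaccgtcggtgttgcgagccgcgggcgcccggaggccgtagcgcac
Elovl5: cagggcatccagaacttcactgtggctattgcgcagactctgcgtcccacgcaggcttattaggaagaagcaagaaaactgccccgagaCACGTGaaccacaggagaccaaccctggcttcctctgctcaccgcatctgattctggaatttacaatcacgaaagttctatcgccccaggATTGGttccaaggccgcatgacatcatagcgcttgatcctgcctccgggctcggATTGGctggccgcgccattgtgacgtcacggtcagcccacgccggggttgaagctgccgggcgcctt
Fads3: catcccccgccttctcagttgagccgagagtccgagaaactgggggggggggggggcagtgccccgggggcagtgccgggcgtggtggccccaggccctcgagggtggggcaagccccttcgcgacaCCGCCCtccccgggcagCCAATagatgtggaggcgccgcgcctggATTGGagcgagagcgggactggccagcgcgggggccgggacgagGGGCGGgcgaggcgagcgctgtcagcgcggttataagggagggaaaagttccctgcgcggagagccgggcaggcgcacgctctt

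The Elovl5 window held 1 E-box at -161 from the start and CCAAT on the reverse strand at -71 and -17. The Fads2 window held 1 GC box at -186, and the Fads3 window held CCAAT at -106 and -78 and GC boxes at -123 and -34. A further motif, TCACNCCAC, the core of the sterol regulatory element, was found in none of the windows of the 7 genes, and only these letters in these windows were searched. Scd1, Scd2 and Fads1 had no window, so nothing can be said of their promoters. Of 32851 windows of this length, 1.24% held TCACNCCAC, 7.15% CACGTG, 37.4% CCAAT and 35.7% GGGCGG. The CG dinucleotide was present 23 times in the Fads2 window, 20 times in that of Elovl5 and 31 times in that of Fads3, against a median of 7 over all windows (quartiles 3 and 20). The windows of Elovl2 held CG 56 and 45 times, and the first of them held 5 GC boxes. Such matches describe the sequence and do not show that a factor binds there.

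Each Tet1 shRNA was set against the scrambled hairpin to ask which of these genes change when Tet1 is depleted. Scd2, of the monounsaturated step, and all 4 genes of the polyunsaturated steps rose with both hairpins. Of the 3 elongases of saturated chains, 2 rose with shRNA 4 (Elovl7 and Elovl6) and 0 with shRNA 5, and Fads3 passed with neither. Of the 9 genes tested, 7 rose and 0 fell with Tet1 shRNA 4 (limma adjusted p under 0.05), where 6.88% of all 21212 probe sets were higher and 4.71% lower. With Tet1 shRNA 5, 5 rose and 0 fell, where 8.37% of all probe sets were higher and 5.46% lower. The 5 genes Scd2, Fads1, Fads2, Elovl5 and Elovl2 rose with both (5.4% of all probe sets were higher with both and 3.4% lower). Both comparisons use the same 3 scrambled arrays. With single arrays left out, 4 to 6 of the 9 genes passed for shRNA 4, below the 7 of the full fit. The median log2 change of the 9 genes was 0.52 with shRNA 4 and 0.45 with shRNA 5, against -0.003 and -0.004 over all probe sets.

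**Figure D1:**
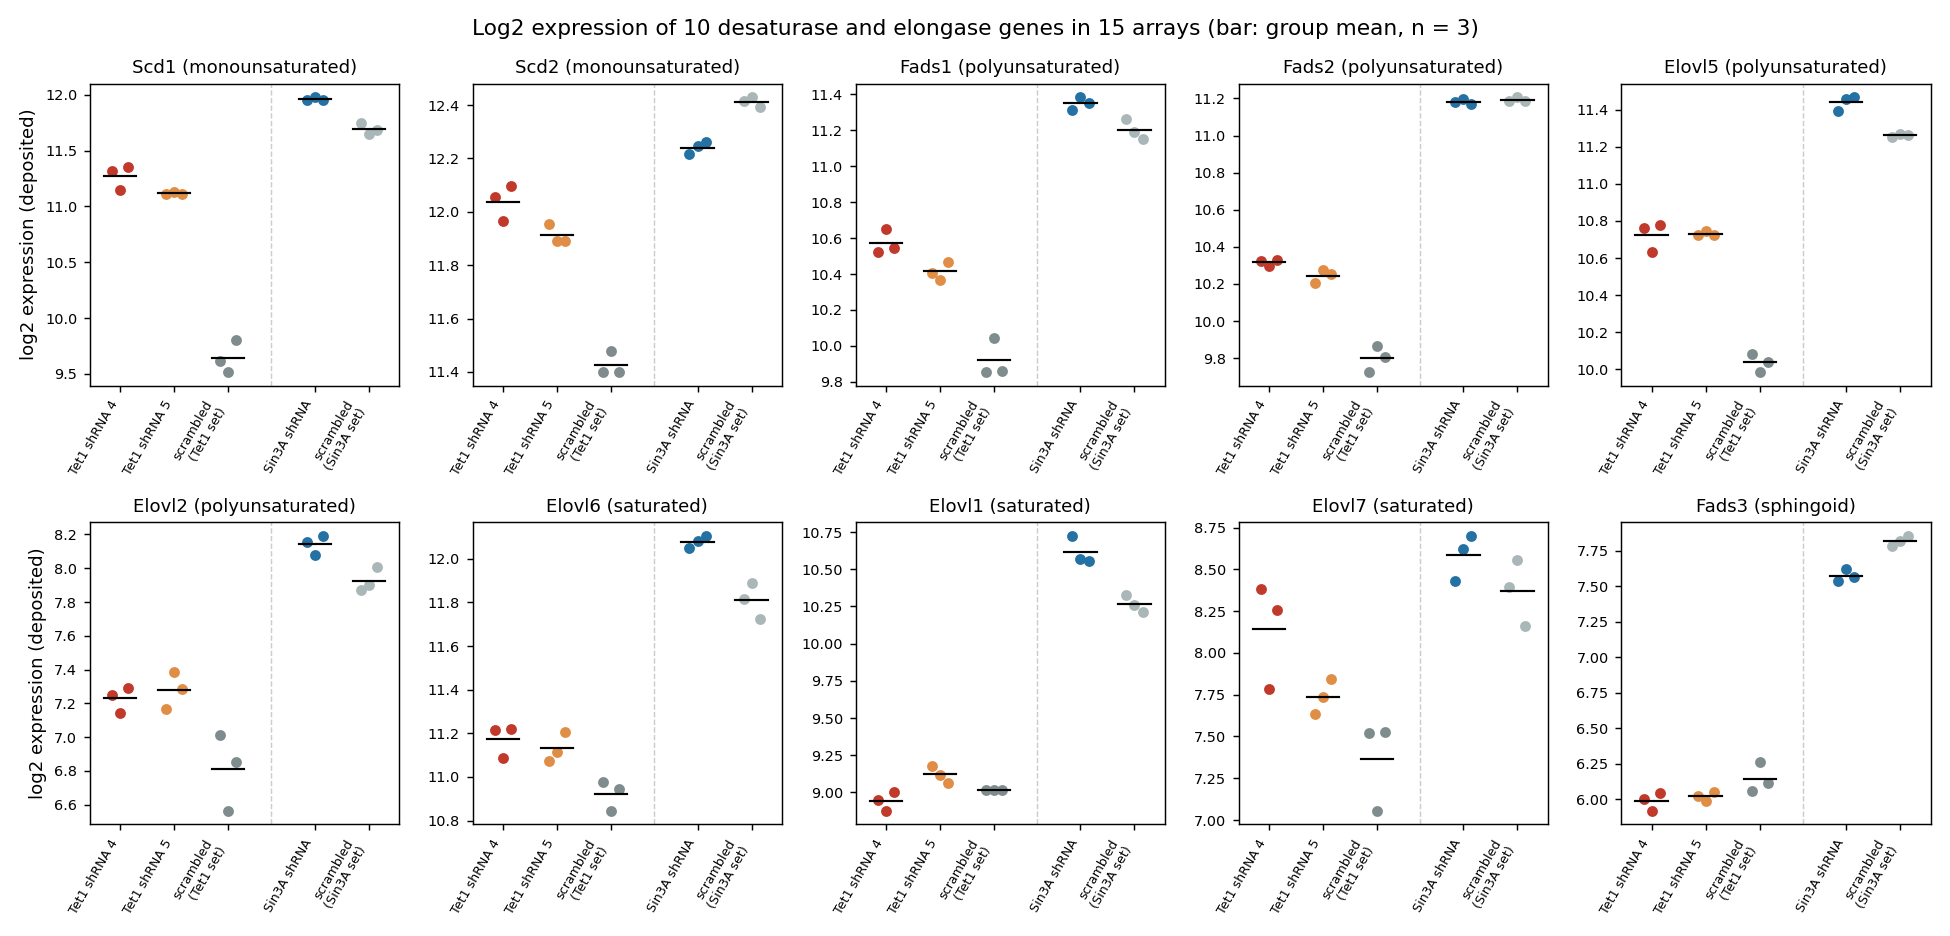
Log2 expression (deposited values, vertical axis, with its own range in each panel) of the 10 genes in the 15 arrays. Points are arrays, bars are means of 3 arrays, and the dashed line divides the Tet1 set from the Sin3A set, whose levels are on separate scales. All Tet1 shRNA arrays lie above all scrambled arrays for Scd1, Scd2, Fads1, Fads2, Elovl5, Elovl2, Elovl6 and Elovl7. Here and below, the share of all probe sets whose groups do not overlap was not counted, so non-overlap describes each gene alone.

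Scd1, the stearoyl-CoA desaturase of liver and fat, had log2 levels of 11.31, 11.15 and 11.35 with Tet1 shRNA 4 and 11.11, 11.13 and 11.11 with Tet1 shRNA 5, against 9.62, 9.52 and 9.80 with the scrambled hairpin. All 6 knockdown arrays lay more than 1 log2 unit above every scrambled array. The difference from scrambled was 1.62 ± 0.08 for shRNA 4 and 1.47 ± 0.08 for shRNA 5 (log2 ± SE, 3.08-fold and 2.77-fold), which stood above 99.97% of all probe sets in each comparison and is a description, as Scd1 led to the choice of the family. Scd2, the isoform of brain and of early development, had 12.06, 11.96 and 12.10 with shRNA 4 and 11.96, 11.89 and 11.89 with shRNA 5, against 11.40, 11.48 and 11.40 with the scrambled hairpin. It rose by 0.61 ± 0.06 with shRNA 4 and 0.49 ± 0.06 with shRNA 5 (1.53-fold and 1.40-fold, limma adjusted p = 0.000164 and 0.000622).

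Among the genes of the polyunsaturated steps, Elovl5, the elongase between the 2 front-end desaturases in the pathway, had 10.76, 10.63 and 10.78 with shRNA 4 and 10.73, 10.75 and 10.72 with shRNA 5, against 10.08, 9.99 and 10.04 with the scrambled hairpin. The rise was 0.69 ± 0.06 and 0.70 ± 0.06 (1.61-fold and 1.62-fold, limma adjusted p = 0.000104 and 9.66e-05). Fads1, the desaturase that forms arachidonic acid, had 10.53, 10.65 and 10.54 with shRNA 4 and 10.41, 10.37 and 10.47 with shRNA 5, against 9.86, 10.04 and 9.86 with the scrambled hairpin. It rose by 0.65 ± 0.07 and 0.49 ± 0.07 (1.57-fold and 1.41-fold, adjusted p = 0.000318 and 0.00144).

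Fads2, the desaturase that starts the polyunsaturated pathway, had 10.32, 10.29 and 10.33 with shRNA 4 and 10.20, 10.28 and 10.26 with shRNA 5, against 9.73, 9.87 and 9.81 with the scrambled hairpin. It rose by 0.52 ± 0.06 and 0.45 ± 0.06 (1.43-fold and 1.36-fold, limma adjusted p = 0.000393 and 0.000871). For Scd2, Fads1, Fads2 and Elovl5 the knockdown arrays did not overlap the scrambled arrays, and each passed for both shRNAs under all 17 alternatives tried. Elovl2, the elongase that leads towards docosahexaenoic acid, was less firmly measured. It had 7.25, 7.15 and 7.29 with shRNA 4 and 7.17, 7.39 and 7.28 with shRNA 5, against 7.01, 6.56 and 6.85 with the scrambled hairpin, where array 2 was the lowest of the 9. It rose by 0.42 ± 0.11 and 0.47 ± 0.11 (limma adjusted p = 0.0362 and 0.0188). The shRNA 4 call held in 5 of 17 alternatives. It was lost without scrambled array 2 or 3 (adjusted p = 0.0601 and 0.0809), without any of the 3 shRNA 4 arrays (0.0535 to 0.119) and without shRNA 5 array 2 or 3 (0.0501 and 0.0591). It was also lost with arrays centred on their medians, with quantile normalization repeated and with only the 2 groups in the fit (0.0606, 0.0596 and 0.0843), and with a replicate block (0.0533). Without both arrays that stood apart it was 0.34 (adjusted p = 0.0548). The shRNA 5 call was lost without shRNA 5 array 2 or 3 (0.0784 and 0.0611).

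**Figure D2:**
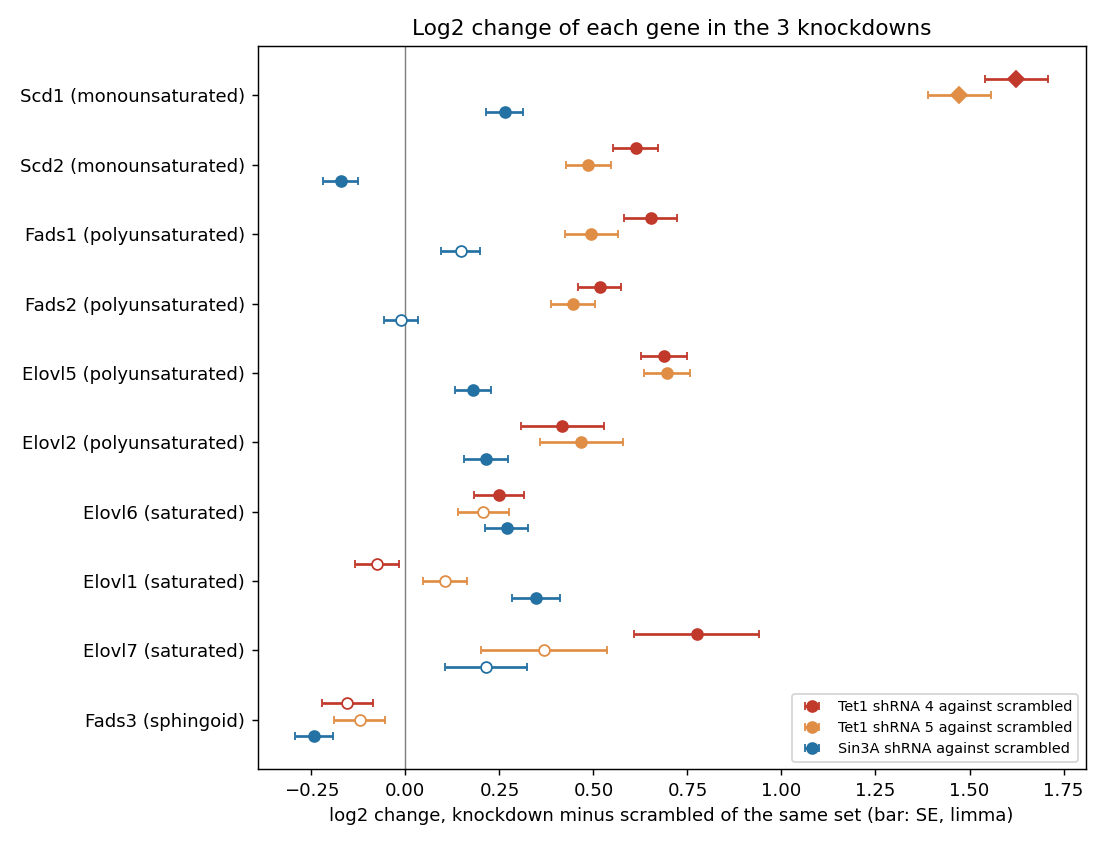
Log2 change (horizontal axis) of the 10 genes, ordered by substrate step, in Tet1 shRNA 4, Tet1 shRNA 5 and Sin3A shRNA cells against the scrambled arrays of the same set (points with SE bars, limma, 3 arrays per group). Filled circles have an adjusted p under 0.05, open circles do not, and the diamonds of Scd1 in the Tet1 comparisons carry no test. Scd1 stands at 1.62 and 1.47 in the Tet1 knockdowns and at 0.26 in the Sin3A knockdown.

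The elongases of saturated chains moved less evenly. Elovl6 had 11.21, 11.09 and 11.22 with shRNA 4 and 11.08, 11.11 and 11.21 with shRNA 5, against 10.98, 10.85 and 10.95 with the scrambled hairpin. The groups did not overlap, yet the changes of 0.25 ± 0.07 and 0.21 ± 0.07 lay near the threshold (limma adjusted p = 0.0405 with shRNA 4, which passed, and 0.0728 with shRNA 5, which did not). The shRNA 4 call held in 8 of 17 alternatives. It was lost without any 1 of the 3 scrambled arrays (0.0576 to 0.0899), without shRNA 4 array 1 or 3 (0.138 and 0.129), without shRNA 5 array 1 or 2 (0.0566 and 0.0664), with arrays centred (0.0764) and with only the 2 groups in the fit (0.0842). The shRNA 5 change passed with all 15 arrays in 1 fit, with an intensity trend and above the median probe set (0.0293, 0.0381 and 0.0337).

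Elovl7, a second elongase of saturated chains, had the largest standard error of the 10 genes in the Tet1 set, with log2 levels of 8.38, 7.79 and 8.26 for shRNA 4 and 7.63, 7.74 and 7.84 for shRNA 5, against 7.52, 7.06 and 7.53 for the scrambled hairpin. Array 2 was the lowest of both the shRNA 4 and the scrambled arrays. It rose by 0.77 ± 0.17 with shRNA 4 (limma adjusted p = 0.0143) and was 0.37 ± 0.17 higher with shRNA 5, which did not pass (0.201). The shRNA 4 call was lost without shRNA 4 array 1 or 3 (0.0583 and 0.0604) and with only the 2 groups in the fit (0.0529), and without both arrays that stood apart the changes were 0.80 with shRNA 4 (0.00195) and 0.21 with shRNA 5 (0.111). Leaving out scrambled array 2 alone gave the same 0.21 for shRNA 5 (0.478). Elovl1, which makes very long saturated chains, had 8.95, 8.88 and 8.9997 with shRNA 4 and 9.18, 9.12 and 9.07 with shRNA 5, against 9.02, 9.02 and 9.02 with the scrambled hairpin, and 2 of these 3 scrambled values were identical in the deposited table. Neither change passed (-0.07 ± 0.06 and 0.10 ± 0.06, adjusted p = 0.511 and 0.31).

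Fads3 also did not pass with either hairpin. It had 6.004, 5.92 and 6.04 with shRNA 4 and 6.02, 5.99 and 6.05 with shRNA 5, against 6.06, 6.26 and 6.11 with the scrambled hairpin. The 95% intervals of its change were -0.31 to -0.002 with shRNA 4 and -0.27 to 0.03 with shRNA 5 (limma adjusted p = 0.207 and 0.317). Rises in signal of the size measured for Fads1 and Fads2 lay outside both. The mean scrambled level of Fads3 was 6.14, against 9.92 for Fads1 and 9.80 for Fads2, and the filter on dim probe sets removed Fads3. The intervals thus bound the array signal and may not bound the change in RNA. Without both arrays that stood apart the change of Fads3 was -0.06 with each hairpin.

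Tet1 shRNA 5 was also set against Tet1 shRNA 4. None of the 10 genes passed (limma, 0 higher and 0 lower, with 3 genes at an unadjusted p under 0.05), where 0.0566% of all probe sets were higher and 0.0849% lower and 1836 had an unadjusted p under 0.05. The 3 genes were Elovl1 at 0.18 (95% interval 0.05 to 0.31), Fads1 at -0.16 (-0.32 to -0.001) and Elovl7 at -0.41 (-0.78 to -0.03), with adjusted p of 0.372, 0.574 and 0.533. For Scd1 the difference was -0.15 (-0.34 to 0.04) and for Scd2 -0.13 (-0.26 to 0.01). For Elovl5 it was 0.01 (-0.13 to 0.14), and for Fads2, Elovl2, Elovl6 and Fads3 -0.07 (-0.20 to 0.06), 0.05 (-0.20 to 0.30), -0.04 (-0.19 to 0.11) and 0.03 (-0.12 to 0.19). These intervals leave room for differences between the hairpins of the size they span.

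The Sin3A shRNA was set against its own scrambled hairpin. Of the 10 genes, 5 rose (Scd1, Elovl1, Elovl6, Elovl2 and Elovl5), 2 fell (Fads3 and Scd2) and 3 did not pass (Fads1, Fads2 and Elovl7), where 12.2% of all probe sets were higher and 12.6% lower. The median log2 change of the 10 genes was 0.20, against 0.006 over all probe sets. All changes were small, at most 1.27-fold. With single arrays left out, 4 to 5 of the 10 genes passed, below the 7 of the full fit.

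Elovl1 changed most, with 10.72, 10.57 and 10.56 with the Sin3A shRNA against 10.33, 10.26 and 10.21 with the scrambled hairpin, a rise of 0.35 ± 0.06 (limma adjusted p = 0.00608). Elovl6 had 12.05, 12.08 and 12.10 against 11.82, 11.89 and 11.73 with the scrambled hairpin, a rise of 0.27 ± 0.06 (0.0113). Scd1 had 11.95, 11.98 and 11.95 with the Sin3A shRNA against 11.75, 11.65 and 11.68 with the scrambled hairpin, a rise of 0.26 ± 0.05 (0.00684). Fads3 had 7.54, 7.62 and 7.56 with the Sin3A shRNA against 7.78, 7.82 and 7.85 with the scrambled hairpin, so it fell by 0.24 on the log2 scale (SE 0.05, 0.0104). The groups did not overlap for these 4 genes, which passed under every alternative that kept them. Fads3 lay below the median probe set and was removed by the filter on dim probe sets.

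The other 3 calls rested on narrow margins. Scd2 had 12.22, 12.24 and 12.26 with the Sin3A shRNA against 12.41, 12.43 and 12.39 with the scrambled hairpin, and fell by 0.17 on the log2 scale (limma adjusted p = 0.03). The call was lost without any 1 of the 6 arrays (0.0583 to 0.0992), although the groups did not overlap. Elovl2 had 8.15, 8.08 and 8.19 against 7.87, 7.90 and 8.01 with the scrambled hairpin and rose by 0.22 ± 0.06 (0.031). That call was lost without scrambled array 1 or 2 (0.11 and 0.0839) and without any of the 3 Sin3A shRNA arrays (0.0525 to 0.0906), and with all 15 arrays in 1 fit (0.133). Elovl5 had 11.39, 11.46 and 11.47 against 11.25, 11.27 and 11.26 with the scrambled hairpin and rose by 0.18 ± 0.05 (0.029). It was lost without any of the 3 scrambled arrays (0.0628 to 0.0934) and without Sin3A shRNA array 2 or 3 (0.113 and 0.0828).

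Fads1 was 0.15 ± 0.05 higher without passing (11.31, 11.38 and 11.35 with the Sin3A shRNA against 11.26, 11.19 and 11.15 with the scrambled hairpin, limma adjusted p = 0.0787), and passed with an intensity trend and above the median probe set (0.0244 and 0.0305). Fads2 did not pass (11.18, 11.20 and 11.17 against 11.19, 11.21 and 11.19 with the scrambled hairpin), with a 95% interval of its change from -0.12 to 0.09. Elovl7 had 8.43, 8.62 and 8.70 against 8.39, 8.55 and 8.16 with the scrambled hairpin, and the groups overlapped (0.21 ± 0.11, 0.205). Without scrambled array 3 its change was 0.11 (0.48).

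Whether the knockdowns differed was tested directly, as the mean Tet1 shRNA effect minus the Sin3A shRNA effect in a fit of all 15 arrays. Of the 9 genes other than Scd1, 4 were higher by this test and 1 was lower, where 11.3% of all probe sets were higher and 8.71% lower. The median difference of these 9 genes was 0.36, against -0.008 over all probe sets. The 4 were Scd2 (0.72 ± 0.07, adjusted p = 4.3e-06), Elovl5 (0.51 ± 0.07, 0.000119), Fads2 (0.49 ± 0.07, 9.18e-05) and Fads1 (0.43 ± 0.08, 0.00181), and the lower 1 was Elovl1 (-0.33 ± 0.08, 0.00741). For Scd2 the effects had opposite signs. Scd1 differed by 1.28 ± 0.09, given as a description. Elovl2, Elovl6, Elovl7 and Fads3 did not pass, with 95% intervals of -0.04 to 0.50, -0.22 to 0.13, -0.08 to 0.80 and -0.06 to 0.27. The sets also differ in their normalization and in the scrambled arrays they use, which cannot be told apart from the knockdowns in this difference.

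**Figure D3:**
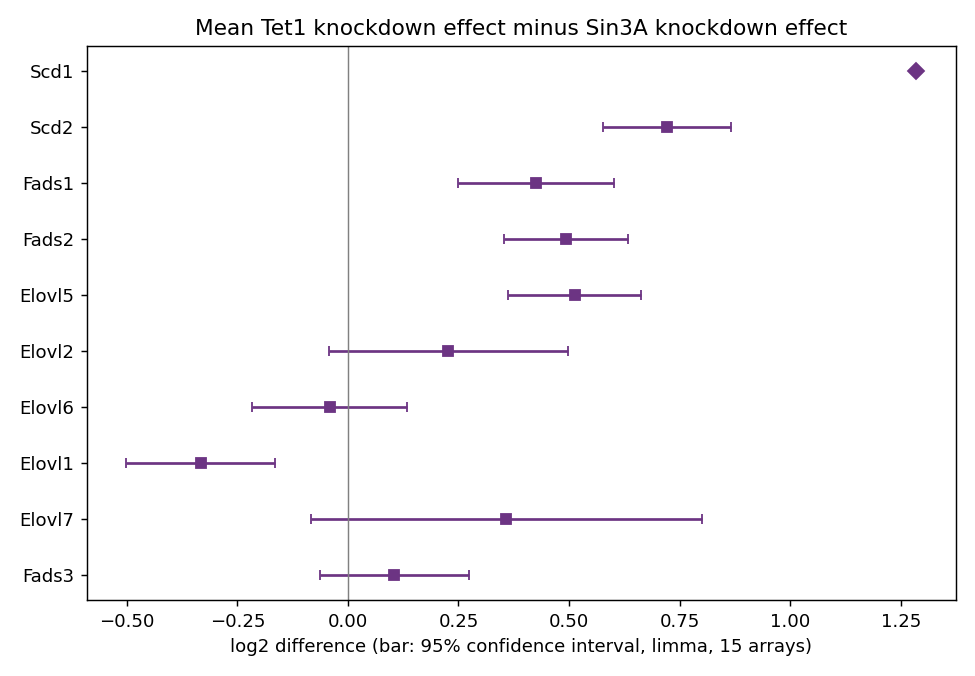
Difference between the mean Tet1 shRNA effect and the Sin3A shRNA effect (horizontal axis, log2) for the 10 genes, with 95% confidence intervals from limma over 15 arrays. Scd1 is a diamond without an interval, as it carries no test here. Scd2, Fads1, Fads2 and Elovl5 lie above 0 and Elovl1 below it, with intervals that leave out 0.

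Both Scd genes and the 3 Fads genes lie in 2 clusters on chromosome 19, so their neighbours in RefSeq order (assembly GRCm38.p6) were read alongside them. In the Scd cluster the order is Pkd2l1, Scd3, Scd2, Scd4, Scd1, Wnt8b and Sec31b. Apart from Scd1, which carries no test, Scd2 was the only one of them that passed with the Tet1 shRNAs. Scd3 was at 0.04 ± 0.06 with each Tet1 shRNA and Scd4, which lies between Scd2 and Scd1, at 0.23 ± 0.11 with shRNA 4 and 0.16 ± 0.11 with shRNA 5 (limma adjusted p = 0.228 and 0.424). Both had low mean log2 levels with the scrambled hairpin, 6.93 for Scd3 and 4.30 for Scd4, against 11.43 for Scd2 and 9.65 for Scd1. Their not passing therefore does not show that these 2 genes did not respond. In the Fads cluster the order is Best1, Rab3il1, Fads3, Fads2, Fads1, Fen1 and Tmem258. Rab3il1 fell by 0.42 and 0.56 on the log2 scale (limma adjusted p = 0.000733 and 0.000158) beside the risen Fads2 and Fads1. Fen1, a flap endonuclease of DNA replication, was 0.16 ± 0.06 higher with shRNA 4 (0.154) and rose by 0.28 ± 0.06 with shRNA 5 (0.0167). Whether the probes of the near-identical Scd genes measure each of them separately was not tested.

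**Figure D4:**
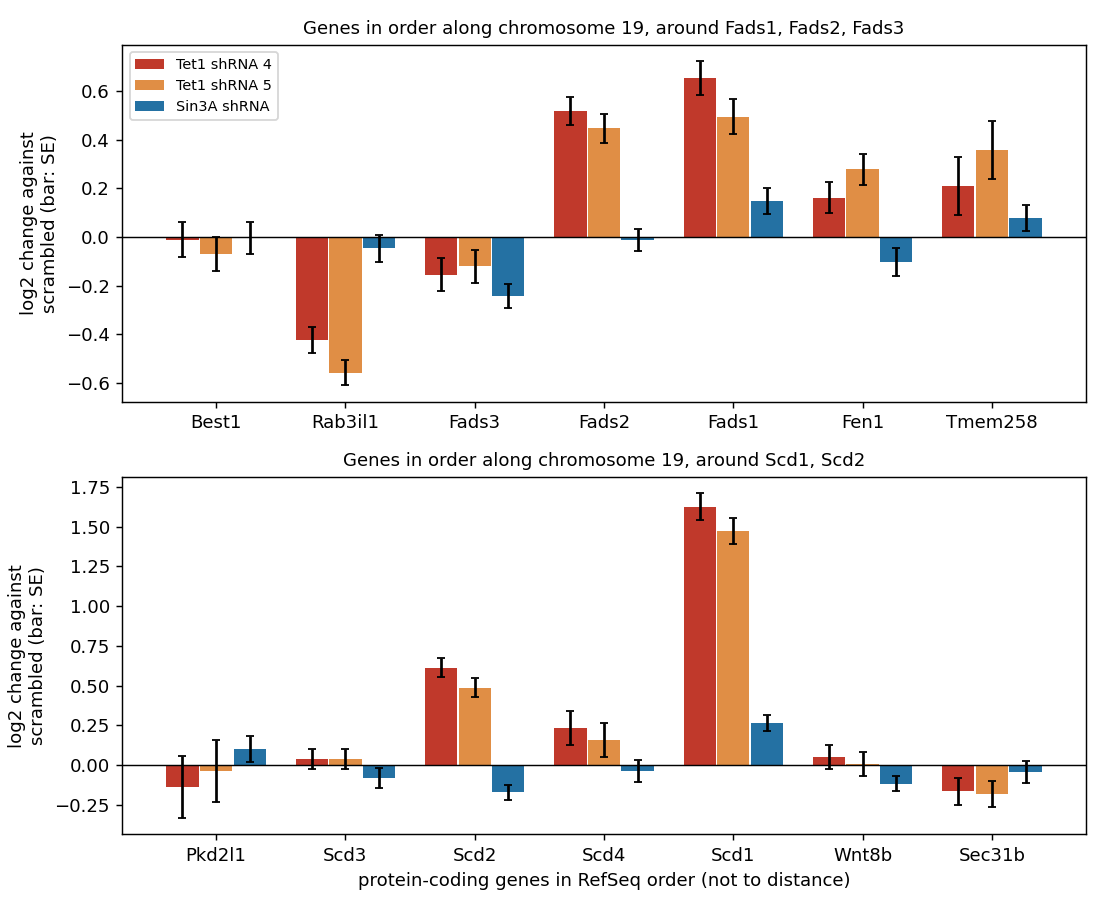
Log2 change against scrambled (vertical axis, bars with SE) of the genes around the Fads genes (top) and the Scd genes (bottom), in their order on chromosome 19 and not to distance, with Tet1 shRNA 4, Tet1 shRNA 5 and Sin3A shRNA side by side. Fads2 and Fads1 rise between Fads3 and Fen1, Rab3il1 falls, and Scd4 between Scd2 and Scd1 reaches 0.23 with shRNA 4.

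Genes of related steps were followed through lists. Their counts stand beside the shares of all probe sets, which were 5.4% higher and 3.4% lower with both Tet1 shRNAs and 12.2% higher and 12.6% lower with the Sin3A shRNA, and the difference of a list from these shares was not tested. Of 7 family members outside the 10 (Scd3, Scd4, Fads6, Degs1, Degs2, Elovl3 and Elovl4), 0 passed for both Tet1 shRNAs. With shRNA 4 alone 0 passed, and with shRNA 5 alone 1 fell (14.3%, against 5.46% of all probe sets) and 0 rose. The median change was 0.12 with shRNA 4 and 0.10 with shRNA 5. Their mean log2 levels with the scrambled hairpin of the Tet1 set ran from 4.30 (Scd4) and 4.69 (Elovl3) to 10.88 (Degs1). At the low levels a change may have been missed. Elovl4, the elongase of ultra-long chains in retina and skin, fell by 0.43 on the log2 scale with the Sin3A shRNA (limma adjusted p = 0.00289). Of 14 genes for the later reactions of the elongation cycle and for the electron supply of desaturases, 1 rose with both Tet1 shRNAs (7.14%) and 0 fell. It was Hacd3, a dehydratase of the cycle (0.49 and 0.54, adjusted p = 0.0335 and 0.0181). Its call was lost without array 1 or 3 of shRNA 4 (0.103 and 0.119 for shRNA 4) and without array 2 or 3 of shRNA 5 (0.053 and 0.0549 for shRNA 4, 0.071 and 0.0642 for shRNA 5). The shRNA 4 call was also lost with arrays centred (0.0528) and with only the 2 groups in the fit (0.0906).

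With the Sin3A shRNA 3 of these 14 genes rose (21.4%) and 2 fell (14.3%), against 12.2% and 12.6% of all probe sets. Cyb5r4, an oxidoreductase, rose by 0.25 (limma adjusted p = 0.0119), Cyb5a, the cytochrome b5 that donates electrons to desaturases, by 0.23 (0.00901), and the dehydratase gene Hacd2 by 0.23 (0.0161). Cyb5b, the mitochondrial cytochrome b5, fell by 0.28 (0.00633) and Cyb5r2 by 0.43 (0.0469). Leaving out single arrays ended the calls of Cyb5r4 (Sin3A shRNA array 2, 0.0582), Hacd2 (scrambled array 2 or 3 and Sin3A shRNA array 2 or 3, 0.0507 to 0.0608) and Cyb5r2 (scrambled array 3 and each Sin3A shRNA array, 0.0541 to 0.121). The Cyb5a call was lost with all 15 arrays in 1 fit (0.0605).

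The list of fatty acid synthesis held 15 genes, of cytosolic and of mitochondrial enzymes together. Of these, 3 rose with both Tet1 shRNAs (20%, against 5.4% of all probe sets) and 1 fell (6.67%, against 3.4%). The median change was 0.07 with shRNA 4 and -0.07 with shRNA 5. Mcat and Oxsm, among the 3 that rose, are mitochondrial, so the share does not describe the cytosolic route alone. Mcat, a mitochondrial malonyl transferase, rose by 0.54 and 0.55 (limma adjusted p = 0.000842 and 0.00071). Oxsm, a mitochondrial ketoacyl synthase, rose by 0.48 and 0.49 (0.0174 and 0.0126). Me1, the cytosolic malic enzyme that supplies NADPH, rose by 0.46 and 0.52 (0.0275 and 0.0131). Acly, which makes cytosolic acetyl-CoA, fell by 0.26 and 0.24 (0.0296 and 0.0335). Fasn, the cytosolic fatty acid synthase, was at 0.08 and 0.15 (0.529 and 0.198) and Acaca, the acetyl-CoA carboxylase, at 0.49 ± 0.22 and 0.47 ± 0.22 (0.221 and 0.218), without passing. Calls ended without single arrays for Oxsm (scrambled array 3 for shRNA 4, 0.0584, and shRNA 5 array 2 for shRNA 5, 0.0532), Me1 (scrambled array 2 or 3 and shRNA 4 array 1 or 3 for shRNA 4, 0.0756 to 0.104, and shRNA 5 array 1 or 2 for shRNA 5, 0.0573 and 0.0572) and Acly. The Acly call was lost for both shRNAs without scrambled array 2 or 3 or shRNA 4 array 1 (0.0555 to 0.102). It was lost for shRNA 4 also without shRNA 4 array 3 or shRNA 5 array 2 (0.104 and 0.0515), and for shRNA 5 without any shRNA 5 array (0.0665 to 0.107). The shRNA 4 call of Acly was lost too with quantile normalization repeated (0.0696), with only the 2 groups in the fit (0.0801) and with a replicate block (0.0532), and that of Oxsm with only the 2 groups (0.0604). Without both arrays that stood apart Me1 and Oxsm missed the threshold for shRNA 4 (0.0559 and 0.0671) and Acly for shRNA 5 (0.0546), while Fasn passed for shRNA 5 (0.19, 0.0498).

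With the Sin3A shRNA 2 of the 15 synthesis genes rose and 2 fell, 13.3% each way, which is close to the 12.2% and 12.6% of all probe sets. Fasn rose by 0.18 (limma adjusted p = 0.0379), the citrate carrier gene Slc25a1 by 0.18 (0.0423), while Mcat fell by 0.27 (0.00986) and Mid1ip1, an activator of acetyl-CoA carboxylase, by 0.21 (0.0319). The calls of Fasn, Slc25a1 and Mid1ip1 were lost without any of the 3 scrambled arrays or without Sin3A shRNA array 2 or 3 (0.0707 to 0.147).

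Of 24 SREBP and other lipogenic regulators, 2 rose with both Tet1 shRNAs (8.33%) and 1 fell (4.17%), shares close to the 5.4% and 3.4% of all probe sets. The median change of the list was 0.09 with shRNA 4 and 0.08 with shRNA 5. Rxra, the partner of liver X receptors and PPARs, rose by 0.67 and 0.62 (limma adjusted p = 0.000907 and 0.00137). The co-activator gene Ppargc1b rose by 0.61 with each hairpin (0.000233 and 0.000247). Mbtps2, a protease that releases SREBPs from their membrane precursors, fell by 0.35 and 0.46 (0.0319 and 0.00725). Its shRNA 4 call was lost without scrambled array 1 or 3 (0.105 and 0.0969), shRNA 4 array 1 or 2 (0.0539 and 0.0785) or any shRNA 5 array (0.0504 to 0.0539), and with only the 2 groups in the fit (0.0918). The genes of the SREBPs themselves did not pass: Srebf1 was at 0.29 ± 0.09 and 0.24 ± 0.09 (0.0566 and 0.106) and Srebf2 at 0.13 ± 0.09 and 0.08 ± 0.09 (0.445 and 0.661). Srebf1 passed for shRNA 4 without shRNA 4 array 3 (0.0188) and for shRNA 5 without both arrays that stood apart (0.0384).

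With the Sin3A shRNA 3 of these regulators rose (12.5%, against 12.2% of all probe sets) and 5 fell (20.8%, against 12.6%). Ppargc1b rose by 0.72 (limma adjusted p = 0.00047), the sterol carrier gene Stard4 by 0.33 (0.0107) and the nuclear receptor gene Ppard by 0.32 (0.00441). Mlxipl, the carbohydrate response factor ChREBP, fell by 0.68 (0.000213), Mbtps2 by 0.41 (0.00171) and Faf2, a factor of protein turnover at the endoplasmic reticulum, by 0.38 (0.00137). Srebf1 was at -0.08 ± 0.05 and Srebf2 at 0.13 ± 0.05 (0.309 and 0.102).

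Of 35 genes that activate or esterify fatty acids, 6 rose with both Tet1 shRNAs (17.1%, against 5.4% of all probe sets) and 2 fell (5.71%, against 3.4%). The median change of the list was 0.16 with shRNA 4 and 0.12 with shRNA 5. Agpat2, an acyltransferase that makes phosphatidic acid, rose by 0.52 and 0.46, Lpin2, a phosphatidate phosphatase, by 0.45 and 0.52 and Lpcat1, which remodels phosphatidylcholine, by 0.37 and 0.58 (limma adjusted p = 0.000882 to 0.0137 for the 3 genes). The acyl-CoA synthetase gene Acsl5 fell by 0.76 and 0.56 (0.000401 and 0.00222) and Agpat4 by 0.29 and 0.28 (0.0186 and 0.0197). The shRNA 4 call of Lpcat1 was lost without shRNA 4 array 1 (0.0504) and that of Lpin2 without shRNA 4 array 3 (0.0564). Agpat4 was lost without scrambled array 3 (0.0733 and 0.0776), for shRNA 4 without shRNA 4 array 1 or 2 (0.0516 and 0.0603) and for shRNA 5 without shRNA 5 array 2 or 3 (0.0747 each). With only the 2 groups in the fit it was lost for shRNA 4 (0.0511).

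With the Sin3A shRNA 5 of these 35 genes rose (14.3%, against 12.2% of all probe sets) and 9 fell (25.7%, against 12.6%). Lpin1, a phosphatidate phosphatase, rose by 1.02 (limma adjusted p = 3.82e-05), Mboat2, a lysophospholipid acyltransferase, by 0.49 (0.000456) and Agpat4 by 0.36 (0.00228). Mboat1 fell by 0.83 (0.00034), Lpcat1 by 0.49 (0.00296) and Dgat2, which makes triglyceride, by 0.49 (0.000997).

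Of 28 genes of fatty acid oxidation, 3 rose with both Tet1 shRNAs (10.7%, against 5.4% of all probe sets) and 1 fell (3.57%, against 3.4%). The median change of the list was 0.08 with each hairpin. The thiolase gene Acaa2 rose by 0.94 and 0.87 (limma adjusted p = 4.79e-05 and 8.18e-05), the carnitine carrier gene Slc25a20 by 0.91 and 0.89 (0.000596 and 0.000659) and Cpt1a, the entry enzyme of mitochondrial oxidation, by 0.57 and 0.30 (0.000673 and 0.0193). Its muscle isoform Cpt1b fell by 0.29 and 0.52 (0.0426 and 0.00218). The shRNA 5 call of Cpt1a was lost without scrambled array 1 (0.0652) or any shRNA 5 array (0.0533 to 0.0677), and the shRNA 4 call of Cpt1b without scrambled array 1 or 3 (0.0955 and 0.147), any shRNA 4 array (0.0866 to 0.121), shRNA 5 array 1 (0.067) or both arrays that stood apart (0.0541), and with only the 2 groups in the fit (0.0539).

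With the Sin3A shRNA 9 of the 28 oxidation genes rose (32.1%, against 12.2% of all probe sets) and 3 fell (10.7%, against 12.6%). Cpt1a rose by 0.43 (limma adjusted p = 0.00167), the hydratase gene Echs1 by 0.43 (0.00862) and Hadha, a subunit of the trifunctional protein, by 0.38 (0.00172). Cpt1b fell by 0.42 (0.0061), the peroxisomal gene Ehhadh by 0.31 (0.0207) and Cpt1c by 0.23 (0.0128). The Ehhadh call was lost without scrambled array 2 or 3 or Sin3A shRNA array 1 or 2 (0.0522 to 0.0735), and the Cpt1c call without scrambled array 1 or Sin3A shRNA array 2 (0.0552 and 0.0605).

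**Figure D5:**
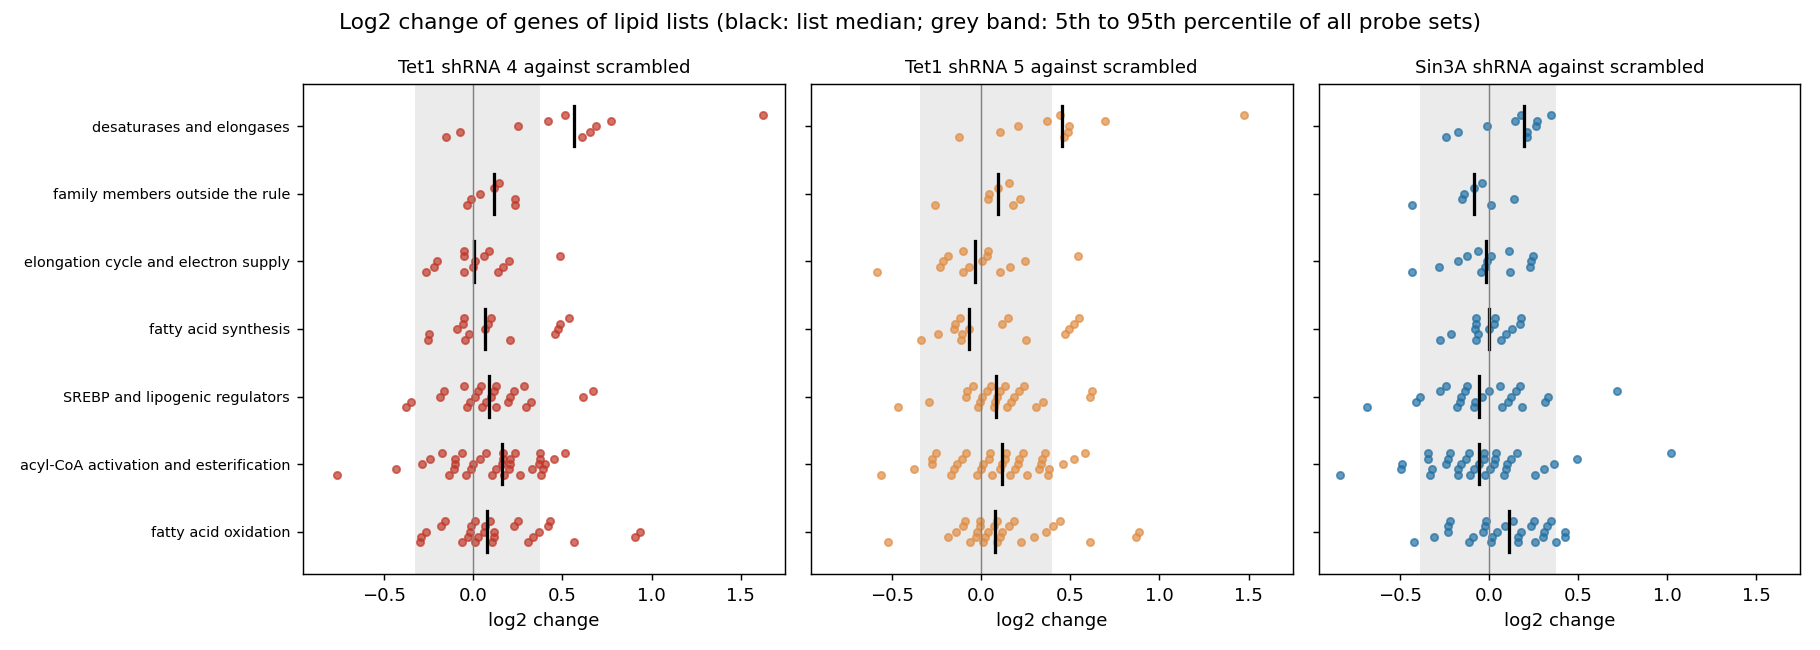
Log2 change (horizontal axis) of the 10 desaturase and elongase genes (top row) and of the 6 lists in Tet1 shRNA 4, Tet1 shRNA 5 and Sin3A shRNA cells against scrambled. Points are genes, black lines are medians and the grey band spans the 5th to 95th percentile of all probe sets. The median of the 10 genes lies at 0.56, 0.46 and 0.20 in the 3 panels, and the Tet1 medians of the 6 lists lie between -0.07 and 0.16. Without Scd1 the Tet1 medians of the other 9 genes were 0.52 and 0.45. The family was selected on the rise of Scd1, so its place beside the lists is a description.

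Markers of cell types were read beside these results. Of all probe sets, 5.4% were higher and 3.4% lower with both Tet1 shRNAs, and 8.37% and 5.46% with shRNA 5. With the Sin3A shRNA 12.2% were higher and 12.6% lower. Of the 10 embryonic stem cell markers, Klf4 and Tdgf1 rose with both Tet1 shRNAs (0.47 and 0.27 for Klf4, 0.23 and 0.20 for Tdgf1, limma adjusted p under 0.05), and Tfcp2l1 fell by 0.28 with shRNA 5. With the Sin3A shRNA Klf4 rose by 0.41 and Tfcp2l1 by 0.26, while Nanog fell by 0.27. Their mean log2 level was 11.90 to 11.94 with shRNA 4 and 11.80 to 11.84 with shRNA 5, against 11.79 to 11.87 with the scrambled hairpin, and 12.35 to 12.38 with the Sin3A shRNA, against 12.28 to 12.31 with its scrambled hairpin. In the Tet1 knockdowns 0 of 7 adipocyte markers passed, and their mean log2 level was 5.46 to 5.60 with shRNA 4 and 5.54 to 5.57 with shRNA 5, against 5.46 to 5.65 with the scrambled hairpin. Of 7 trophectoderm markers, 2 rose with both shRNAs (Eomes and Gata3) and 2 fell (Krt7 and Tfap2c), with mean levels of 6.73 to 6.86 and 6.86 to 6.91, against 6.65 to 6.80 with the scrambled hairpin. Of 9 primitive endoderm markers, Sox7 rose with both (mean levels 6.33 to 6.47 and 6.32 to 6.48, against 6.16 to 6.38 with the scrambled hairpin), while Dab2 fell by 0.41 with shRNA 5 (adjusted p = 0.00807) and was at -0.28 with shRNA 4 without passing (0.0554). Of 9 fibroblast markers Thy1 rose with both (6.15 to 6.28 and 6.13 to 6.25, against 6.09 to 6.26 with the scrambled hairpin). In the Sin3A knockdown 1 of 7 adipocyte markers rose (Lipe, a lipase that other cells also express), and their mean level was 6.63 to 6.69, against 6.58 to 6.67 with the scrambled hairpin. Of the trophectoderm markers Eomes rose there and Krt7, Tfap2c and Gata3 fell, and the mean level of the list was 7.76 to 7.83 with the Sin3A shRNA, against 7.95 to 8.01 with the scrambled hairpin, without overlap. Of the primitive endoderm markers Sox7 rose by 0.45 and Dab2 fell by 0.86 (7.37 to 7.40, against 7.38 to 7.43 with the scrambled hairpin). Of the fibroblast markers Pdgfrb fell by 0.58 and Thy1 by 0.23 (7.12 to 7.30, against 7.28 to 7.38 with the scrambled hairpin). The list means of the stem cell markers also lay apart from scrambled with shRNA 4 and with the Sin3A shRNA, both higher. Those of the trophectoderm markers did so with shRNA 5, also higher. The part of such cells in the changes of the desaturases and elongases was not tested. In bulk RNA fewer cells of a type and less RNA per cell cannot be told apart.

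The genes whose changes were most like those of 2 members were found by the root mean square difference of their log2 changes in the 3 comparisons with scrambled. For Scd1, the member that changed most in the Tet1 knockdowns, they were Sema5b (root mean square difference 0.040), Skida1 (0.060) and Kdelr3 (0.154). Sema5b changed by 1.62, 1.43 and 0.21 in the comparisons for shRNA 4, shRNA 5 and the Sin3A shRNA. For Elovl1, the member that changed most in the Sin3A knockdown, they were Ampd2 (0.019), Pde12 (0.020) and Polr1e (0.023). This likeness covers 3 values per gene and is a description.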

How the data were processed

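Per the labels' protocols, total RNA was processed with an Affymetrix whole transcript kit, 1 array per sample. The authors deposited log2 expression values for 21212 probe sets, and the submitters' processing notes name affy, RMA and limma with no version. Settings are not given in the sources used here. Array means show that the Tet1 set and the Sin3A set were normalized separately. In the Tet1 set 10415 probe sets hold a value shared by several arrays and in the Sin3A set 0 do. Probe sets were named from the platform annotation, and 10 list symbols without a match were not analysed here.

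All tests were two-sided moderated tests of limma 3.58.1 (R 4.3.3), with Benjamini-Hochberg adjustment over the whole table and a threshold of 0.05: 9 arrays with 3 group means, 6 arrays with 2, and all 15 arrays for the difference. The fit was tested on simulated data with noise drawn independently for each array. The simulation held no ties and no deviations shared between arrays, so it does not give error rates for these data. The members, lists, steps and tests were chosen with earlier results of these data known. All members are described. From each list, genes passing for both Tet1 shRNAs or for the Sin3A shRNA are named, at most the 3 highest and 3 lowest of each, besides Srebf1, Srebf2, Fasn and Acaca. The number of arrays limits the precision. Alternatives covered scaling, a filter on dim probe sets, the variance prior, the arrays fitted, the replicate number as a block, and arrays left out.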

Additional observations from a re-analysis of the deposited data

Results flagged for a closer look

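The difference between the mean Tet1 shRNA effect and the Sin3A shRNA effect passed for 5 genes (limma, 15 arrays), with Scd1 left out as it carries no test. Of all probe sets 11.3% were higher and 8.71% lower by this difference. It was 0.72 for Scd2, where the Tet1 shRNAs gave 0.61 and 0.49 and the Sin3A shRNA -0.17 on the log2 scale. It was 0.51 for Elovl5, 0.49 for Fads2 and 0.43 for Fads1, for which the Sin3A shRNA gave 0.18, -0.01 and 0.15. It was -0.33 for Elovl1, where the Tet1 shRNAs gave -0.07 and 0.10 and the Sin3A shRNA 0.35. These 5 differences passed under all 21 alternatives. None of the alternatives separates the knockdowns from the normalization and the scrambled arrays of their sets.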

How the results depend on the processing

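Of 835 values of the 10 genes under alternatives, 777 kept their direction and side of the threshold, 46 lost the call, 5 gained it and 7 changed sign. The sign changes were all in differences that did not pass. Elovl5, shRNA 5 minus 4, was at -0.039 after repeated quantile normalization and -0.038 without the 2 arrays that stood apart, and at -0.038 to 0.035 with single arrays left out. Fads3 in that comparison was at -1.3e-05 without the 2 arrays and at -1.3e-05 to 0.060 with single arrays left out (lowest without shRNA 4 array 2), and Elovl2 at -0.0032 to 0.11 (lowest without shRNA 5 array 2). Elovl6, Tet1 minus Sin3A, was at -0.080 to 0.0013 (highest without scrambled array 3 of the Sin3A set) and Srebf2, shRNA 5, at -0.010 to 0.17 (lowest without scrambled array 1). With only the 2 groups in the fit, 4 of the 9 genes passed for shRNA 4, against 7, with fewer arrays behind the spread. The share of all probe sets passing in that fit is not set beside this count, so it is not read as particular to these genes.

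Same-numbered arrays of scrambled and shRNA 4 deviated together in all 3 pairs (r = 0.274, 0.517 and 0.171). Differently numbered arrays did so too, as shRNA 4 array 3 with scrambled array 1 (0.281) and shRNA 4 array 1 with scrambled array 3 (0.162). Deviations within a group of 3 arrays add up to 0, so these values are not independent and do not show pairing by number. The 6 pairs with shRNA 5 (-0.287 to 0.0361) and the 3 of the Sin3A set (-0.274 to 0.0212) did not deviate together. The block is therefore given only as an alternative. In the shRNA 4 comparison it ended the calls of Elovl2 and Acly and of no other gene named. Elsewhere it ended those of Acly for shRNA 5 (0.0576) and, for the Sin3A shRNA, of Scd2, Elovl2, Elovl5, Fasn, Slc25a1, Mid1ip1 and Hacd2 (0.0514 to 0.0955). With this replicate block, 4 of the 10 genes passed for the Sin3A shRNA, against 7, again without the share of all probe sets beside it. Between the Tet1 shRNAs 0 probe sets passed with the block, against 30. That count was 188 with all 15 arrays in 1 fit, 48 with an intensity trend, 72 above the median probe set, 0 with only 2 groups and 1 without the 2 arrays; the cause was not tested. With single arrays left out, passing genes numbered 4 to 6 for shRNA 4, 4 to 5 for shRNA 5, 4 to 5 for both, 5 to 5 for the difference, 0 to 0 between the shRNAs and 4 to 5 for the Sin3A shRNA. Passing probe sets numbered 1662 to 2633, 2004 to 3077, 1380 to 2046, 3408 to 4511, 0 to 36 and 3359 to 4944 in that order. The full fits gave 7 passing genes for shRNA 4 and 7 for the Sin3A shRNA, above all counts with an array left out. For the Sin3A shRNA the 5261 probe sets passing in the full fit also lay above that range. Choosing another probe set gave no value, since each gene had 1.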
